A study of Homo sapiens with 30 samples.

Results

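The genes described here are 10 transcripts that the transcription factor p53 switches on in stressed human cells: CDKN1A, GADD45A, PLK2, MDM2, FAS, BAX, TP53I3, SESN1, ZMAT3 and GDF15. They were found by gene symbol, as every probe set whose platform annotation gives exactly 1 of these symbols. That returned 19 of the 22277 probe sets in the deposited table, for 10 of the 11963 genes with a probe set of their own. A probe set is a group of short oligonucleotides on the array that reads 1 stretch of a transcript. In their names the ending _s_at marks probes shared by several transcripts, and _x_at probes that also match other sequences. MDM2 has 5 probe sets, FAS 4, and BAX and GDF15 have 2 each. The other 6 genes have 1 each.

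In resting cells p53 is made and destroyed continuously, because MDM2, itself a target, marks it for degradation. DNA damage, oxidative injury and other stresses block that loop, p53 accumulates, and its targets then halt the cell cycle, repair damage, adjust metabolism or set off apoptosis. In airway epithelium such responses are studied because inhaled fibres and particles can injure DNA and mitochondria. Several of the 10 also answer to other stress pathways, so none reads p53 alone.

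The cultures were human small airway epithelial (SAE) cells from a commercial supplier, labelled only by that cell type, and no agent other than the particles is named. Unexposed cultures (0 ug/ml) were set beside cultures given multi-walled carbon nanotubes (MWCNT), which are nested cylinders of carbon, or titanium dioxide nanobelts (TiO2), which are flat ribbons of the oxide. Each particle was given at 10 or 100 ug/ml. Every condition was taken at 1 h and at 24 h, which gives 10 groups of 3 labelled biological replicates, 30 Affymetrix arrays in all. All cells were detached with trypsin and replated in flasks for the experiment, in controls too. The labels do not say whether replicates came from separate donors or only from separate flasks, so the p-values below measure the spread between these cultures. At each time the 4 exposed groups share the same 3 control arrays.

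Values are log2 expression per probe set, so a difference of 1 is a doubling, and levels of different probe sets were not compared. The array medians lay between 7.15 and 7.21, the table median was 7.18, and any pair of arrays correlated at 0.985 to 0.999 over the table. Of 5 general epithelial genes 3 were above the table median, KRT18 at 12.92, KRT8 at 11.67 and CDH1 at 7.93, but KRT19 averaged 5.89. Of 5 measured markers of basal airway cells 3 were above the table median, but KRT14 averaged 3.94 and KRT5 only 7.24. All 4 measured secretory, 3 ciliated and 5 endothelial markers were below that median. Above it lay 2 of 6 fibroblast markers (COL1A1 at 8.02, PDGFRB at 7.31), 2 of 4 alveolar markers (SFTPC at 7.75, ABCA3 at 7.64) and 1 of 4 immune markers (CD14 at 7.71). These are bulk cultures, in which fewer cells of a type and less RNA per cell cannot be told apart. In this text a gene rose or fell when limma's moderated test gave an adjusted p under 0.05 over 22215 probe sets.

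Promoter sequence puts the genes in context before their values. RefSeq windows of 300 bases, 250 before to 50 after a transcript start on GRCh38.p14, matched 9 of the 10 genes, with 17 windows. GADD45A had no entry. Matches to the p53 half-site, the ten-letter consensus of which a pair makes a full response element, stood in 3 of the 17 windows, against 6.63% of all 35116 windows. The consensus is its own reverse complement, so 1 search covers both strands. Those windows belong to PLK2, FAS and SESN1, the only members with a match, and 100 bases of each follow with the half-site in capitals. GDF15 and CDKN1A, which like PLK2 and FAS passed with an exposure, had no match in their windows. SESN1 passed with no exposure.

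PLK2: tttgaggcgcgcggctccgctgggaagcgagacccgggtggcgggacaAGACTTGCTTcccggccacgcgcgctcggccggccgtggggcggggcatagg
FAS: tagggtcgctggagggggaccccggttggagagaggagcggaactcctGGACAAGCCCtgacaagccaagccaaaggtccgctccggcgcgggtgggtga
SESN1: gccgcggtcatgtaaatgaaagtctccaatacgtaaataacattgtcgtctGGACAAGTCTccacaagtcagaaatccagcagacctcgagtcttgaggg

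Read 5′ to 3′ on the gene's own strand, the PLK2 stretch is chr5:58460167-58460266 (minus strand), with the half-site at -132 to -123 from the transcript start. The FAS stretch is chr10:88991261-88991360 (plus strand) with the half-site at -122 to -113. The SESN1 stretch is chr6:109008989-109009088 (minus strand) with it at -49 to -40. The transcript starts used for FAS (88991431) and SESN1 (109008988) lie inside these genes, not at their outer ends. FAS spans 88964050 to 89017059 and SESN1 108984309 to 109094846. A match describes the letters only, and a window without one says nothing about p53 at other sites of a gene. The base just before the transcript start is -1.

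The CDKN1A and GDF15 windows held other core promoter letters, shown with the motifs in capitals because both genes changed with time.

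CDKN1A: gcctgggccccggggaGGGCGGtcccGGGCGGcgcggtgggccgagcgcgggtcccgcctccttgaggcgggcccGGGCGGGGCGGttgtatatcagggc
GDF15: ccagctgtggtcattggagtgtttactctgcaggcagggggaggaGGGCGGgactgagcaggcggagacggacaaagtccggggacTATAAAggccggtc

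The CDKN1A stretch, chr6:36678594-36678693 (plus strand), held 4 copies of GGGCGG on this strand, the core of a GC box, and the last pair overlap. The GDF15 stretch, chr19:18386043-18386142 (plus strand), held TATAAA from -29 and GGGCGG from -70. Searched on both strands, GGGCGG occurred in 15 of the 17 windows and in 44.95% of all windows. TATAAA occurred in 1 of the 17, that of GDF15, and in 11.53% of all windows. CCAAT occurred in 9 of the 17 and in 34.61% of all windows.

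More of these probe sets passed between the times in unexposed cells than in any comparison with a particle, as was also the case over the whole table. In unexposed cells between 1 h and 24 h, 11 of the 19 probe sets passed, 3 higher and 8 lower, which is 7 of the 10 genes. Of all probe sets 27.9% passed that comparison, 16.2% higher and 11.6% lower. Of the 11122 probe sets above the table median, fitted alone, 3196 were higher and 2114 lower. The median size of the difference was 0.29 over the 19 probe sets and 0.13 over all. Against unexposed cells of the same time, 8 of 152 tests passed, 7 higher and 1 lower, all of them at 100 ug/ml. Over all probe sets 2.56% of the tests in these 8 comparisons passed.

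**Figure D1:**
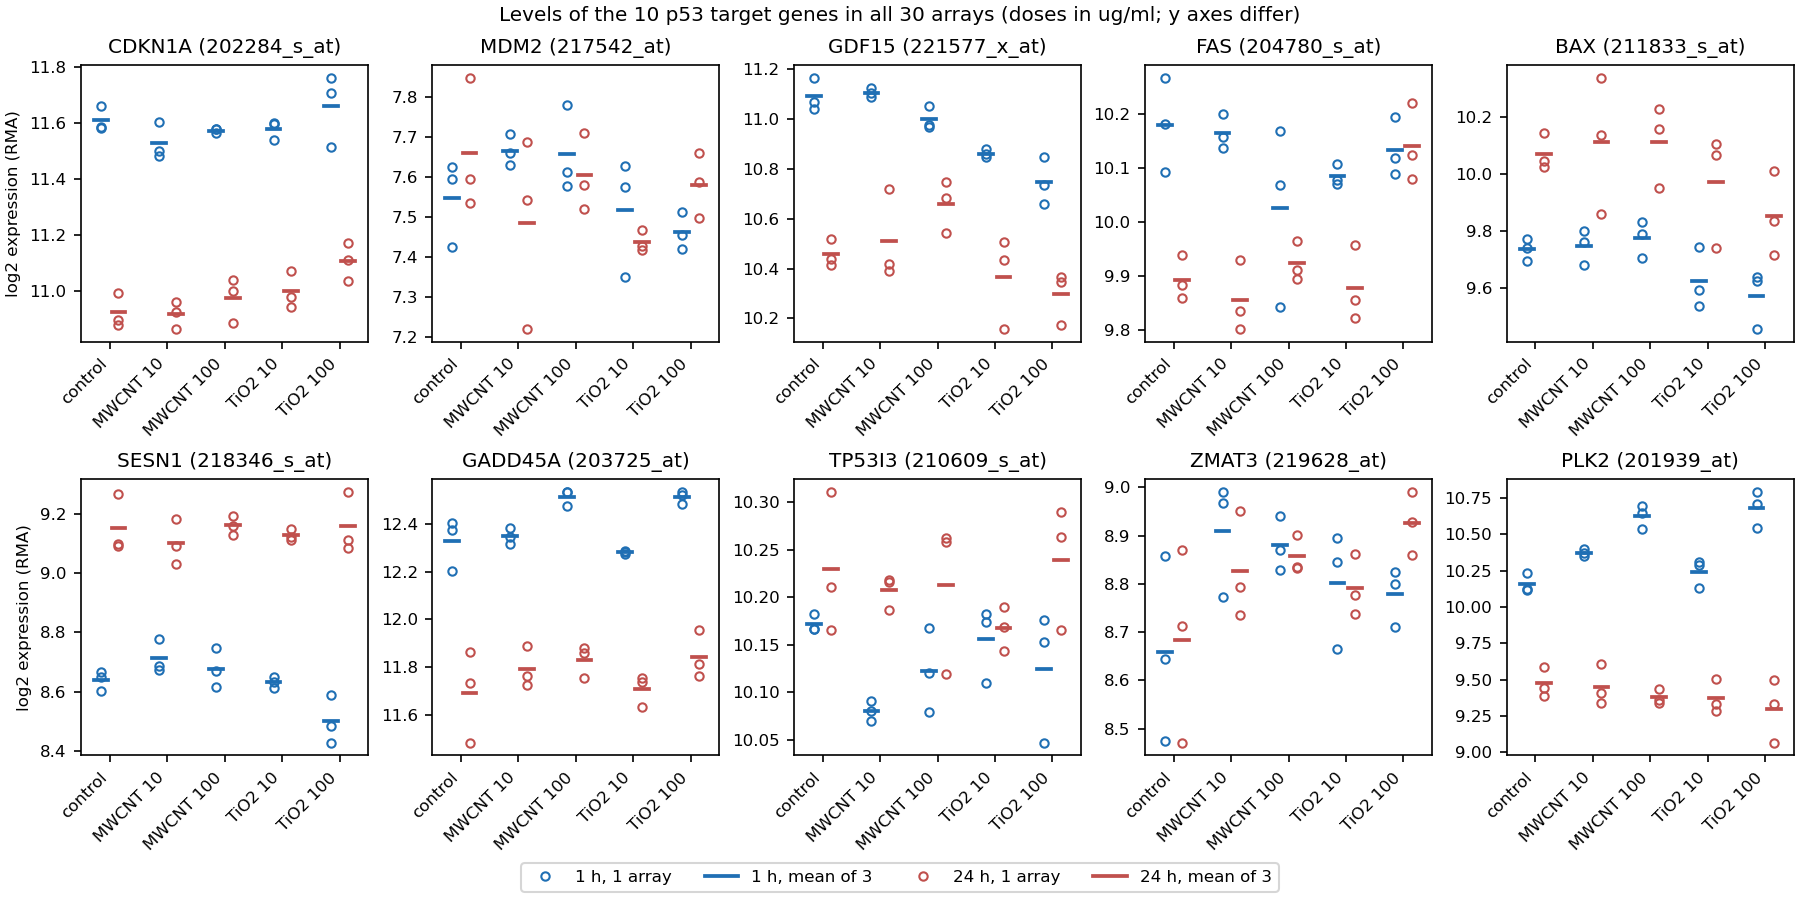
Log2 expression (y axis, scale differs by panel) of the 10 genes in the 10 groups (x axis: control, then particle and dose in ug/ml), with 1 open circle per array and a bar at the mean of 3; blue is 1 h and red is 24 h. For genes with several probe sets the one with the highest mean is drawn, and CDKN1A, GADD45A and PLK2 show all 15 arrays of 1 h above all 15 of 24 h, SESN1 the reverse.

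The genes of cell cycle arrest stood highest at 1 h. CDKN1A encodes p21, an inhibitor of cyclin-dependent kinases. Its levels were 11.58, 11.66 and 11.58 in the unexposed cultures at 1 h and 10.90, 10.99 and 10.88 at 24 h. The arrays of the 2 times were far apart. The level at 24 h was 1.61-fold lower, with a 95% interval of -0.81 to -0.56 on the log2 scale (limma adjusted p = 2.798e-09). GADD45A, a small protein that binds PCNA and stress kinases, measured 12.40, 12.20 and 12.37 at 1 h and 11.86, 11.48 and 11.73 at 24 h. It fell by 0.63 ± 0.07 (SE, n = 3, adjusted p = 3.27e-07). PLK2, a polo-like kinase that regulates centriole duplication, measured 10.24, 10.12 and 10.12 at 1 h and 9.59, 9.39 and 9.44 at 24 h. It fell by 0.68 ± 0.09 (adjusted p = 2.92e-06). For these 3 genes the split by time held with the exposed groups counted in: the 15 arrays of 1 h all lay above the 15 of 24 h.

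Genes of cell death did not move together. FAS encodes the cell surface receptor through which FAS ligand starts apoptosis, and all 4 of its probe sets fell in unexposed cells. Probe set 204781_s_at went from 9.54, 9.39 and 9.58 to 9.23, 9.10 and 9.17, a fall of 0.34 ± 0.06 (adjusted p = 0.000202). Every array of 1 h was above every array of 24 h. The other 3 probe sets gave differences of -0.34, -0.29 and -0.28 with adjusted p from 0.00109 to 0.00920. The last of these, 216252_x_at, did not pass without replicate 3 of the unexposed cells at 1 h (adjusted p = 0.0672) or with only the 2 compared groups fitted (adjusted p = 0.0872).

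BAX, which opens the outer mitochondrial membrane in apoptosis, rose instead. Probe set 211833_s_at measured 9.74, 9.77 and 9.69 at 1 h and 10.05, 10.02 and 10.14 at 24 h, a rise of 0.33 ± 0.10 (adjusted p = 0.0168). The groups did not overlap. The call was lost without replicate 3 of the unexposed cells at 1 h (adjusted p = 0.0556) or at 24 h (adjusted p = 0.0691). Probe set 208478_s_at rose by 0.29 ± 0.10 (adjusted p = 0.0388). It was lost after cyclic loess (0.0778), with only the 2 groups fitted (0.0699), and without replicates 1 or 3 at 1 h or 2 or 3 at 24 h (adjusted p from 0.0563 to 0.164). TP53I3, a quinone oxidoreductase tied to reactive oxygen, ranged only from 10.05 to 10.31 over the 30 arrays and did not pass in any of the 21 comparisons.

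SESN1, a sestrin that restrains mTORC1 signalling and supports antioxidant defence, rose over the same interval. Its levels were 8.67, 8.60 and 8.65 at 1 h and 9.26, 9.10 and 9.09 at 24 h, a rise of 0.51 ± 0.06 (1.43-fold, adjusted p = 2.579e-07). All 15 arrays of 24 h, exposed or not, lay above all 15 of 1 h. ZMAT3, a zinc finger protein that binds RNA, gave no such split, with 8.64, 8.47 and 8.86 against 8.47, 8.87 and 8.71.

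GDF15, a secreted stress hormone of the TGF-beta family, fell on 1 of its 2 probe sets. Probe set 221577_x_at measured 11.07, 11.17 and 11.04 at 1 h and 10.52, 10.41 and 10.44 at 24 h, a fall of 0.63 ± 0.08 (adjusted p = 2.5e-06). All 3 arrays of 24 h were below those of 1 h. Probe set 221576_at, at 4.41 to 5.07 over all arrays and under the table median, did not pass in any comparison. In the same cultures other markers passed as well: KRT8 fell by 0.50, KRT18 by 0.47 and the immune marker CD14 by 0.40, and the basal marker ITGA6 rose by 0.29. These are 2 of 5 general epithelial, 1 of 4 immune and 1 of 5 basal genes measured, and 0 passed of the secretory, ciliated, alveolar, fibroblast and endothelial lists. The log2 summed level of the general epithelial genes was 13.79 to 13.82 at 1 h and 13.08 to 13.53 at 24 h, that of the immune genes 8.34 to 8.50 and 8.06 to 8.33, and that of the basal genes 10.53 to 10.59 and 10.47 to 10.61. Their part in the changes over time was not tested.

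MDM2, the ubiquitin ligase that closes the p53 loop, did not pass at any of its 5 probe sets in this comparison, and 4 of the 5 lay below the table median.

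**Figure D2:**
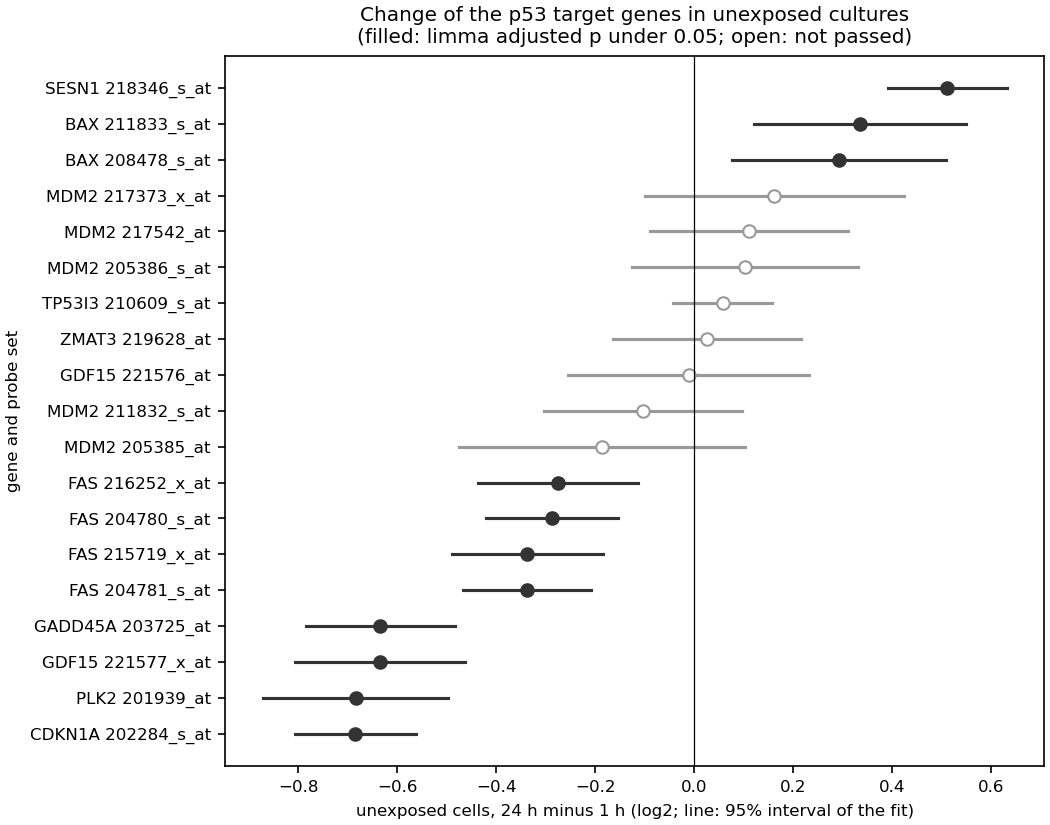
Difference between unexposed cultures at 24 h and at 1 h (x axis, log2, 24 h minus 1 h) for each of the 19 probe sets (y axis); points are the fitted differences of 3 against 3 arrays, lines their 95% intervals, and filled points passed limma's adjusted p of 0.05. CDKN1A, PLK2, GDF15 and GADD45A lie between -0.69 and -0.63 at the low end and SESN1, at 0.51, at the high end.

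The 1 h exposures asked which targets answer first contact with a particle, and PLK2 and GDF15 were the genes that passed. In unexposed cells PLK2 measured 10.24, 10.12 and 10.12. With MWCNT at 100 ug/ml it measured 10.65, 10.69 and 10.54, and with TiO2 at 100 ug/ml 10.55, 10.71 and 10.79. Each of the 6 arrays at 100 ug/ml was above each control. PLK2 rose by 0.47 ± 0.09 with MWCNT (1.38-fold, n = 3, adjusted p = 0.0053) and by 0.52 ± 0.09 with TiO2 (1.44-fold, adjusted p = 0.000975). These 2 rises rest on the same 3 controls.

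At 10 ug/ml the PLK2 values were lower. MWCNT gave 10.37, 10.35 and 10.40, all above the controls, a difference of 0.22 ± 0.09 that did not pass (adjusted p = 0.413). TiO2 gave 10.29, 10.31 and 10.13, which overlapped the controls (difference 0.08 ± 0.09, adjusted p = 0.913). Between the doses of TiO2 the difference of 0.44 ± 0.09 passed (adjusted p = 0.0313), where 0.23% of all probe sets did. That call was lost with only the 2 groups fitted (adjusted p = 0.293) and without any 1 of the arrays of TiO2 at 10 ug/ml, or replicate 2 or 3 at 100 ug/ml (0.0773 to 0.275). Between the doses of MWCNT it was 0.25 ± 0.09 and did not pass (adjusted p = 0.524).

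GDF15 fell with TiO2 at 100 ug/ml at 1 h. Probe set 221577_x_at measured 10.73, 10.85 and 10.66 there against 11.07, 11.17 and 11.04 in unexposed cells. All 3 exposed arrays were below the controls. The fall was 0.34 ± 0.08 (1.27-fold lower, adjusted p = 0.0196). TiO2 at 10 ug/ml gave 10.86, 10.85 and 10.88, also below every control, a difference of -0.23 ± 0.08 that did not pass (adjusted p = 0.314). The fall at 100 ug/ml was lost with only the 2 groups fitted (adjusted p = 0.103). It was lost too without replicate 1 (0.0605) or 2 (0.122) of the controls, or replicate 1 (0.067) or 3 (0.135) of the exposed cells. The dim probe set 221576_at gave 0.21 in the same comparison.

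In number, 1 of the 19 probe sets passed with MWCNT at 100 ug/ml (1.45% of all probe sets did) and 2 with TiO2 at 100 ug/ml, 1 in each direction (2.63% of all, 2.34% higher and 0.293% lower). With 10 ug/ml the count was 0 for MWCNT (0.0315% of all) and 0 for TiO2 (1.27% of all). Without adjustment, limma p values under 0.05 numbered 6 of 19 for each particle at 100 ug/ml, where 11.4% (MWCNT) and 11.2% (TiO2) of all probe sets had one. At 10 ug/ml they numbered 2 and 1, against 10.7% and 8.44% of all. With MWCNT at 100 ug/ml the 6 included FAS at 204780_s_at, 204781_s_at and 215719_x_at, which were lower (-0.15, -0.16 and -0.16). These probe sets read the same gene. With TiO2 at 100 ug/ml the 6 included the dim MDM2 probe sets 205386_s_at (0.29) and 217373_x_at (0.30). GADD45A was among the 6 with each particle at 100 ug/ml, where its 3 arrays lay above every control. It measured 12.53, 12.53 and 12.48 with MWCNT and 12.48, 12.54 and 12.52 with TiO2, against 12.40, 12.20 and 12.37. Both differences were 0.19 ± 0.07 and did not pass (adjusted p = 0.279 and 0.271).

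CDKN1A, a widely used p53 readout, did not pass in any comparison at 1 h. Its 4 differences from control ran from -0.08 to 0.05. MDM2 probe set 217542_at, the one above the table median, gave 0.12 and 0.11 with the low and high dose of MWCNT and -0.03 and -0.09 with those of TiO2. The 95% interval with TiO2 at 100 ug/ml was -0.29 to 0.11. The dim MDM2 probe set 217373_x_at gave positive differences in all 8 comparisons with controls, from 0.09 to 0.30, and none passed.

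**Figure D3:**
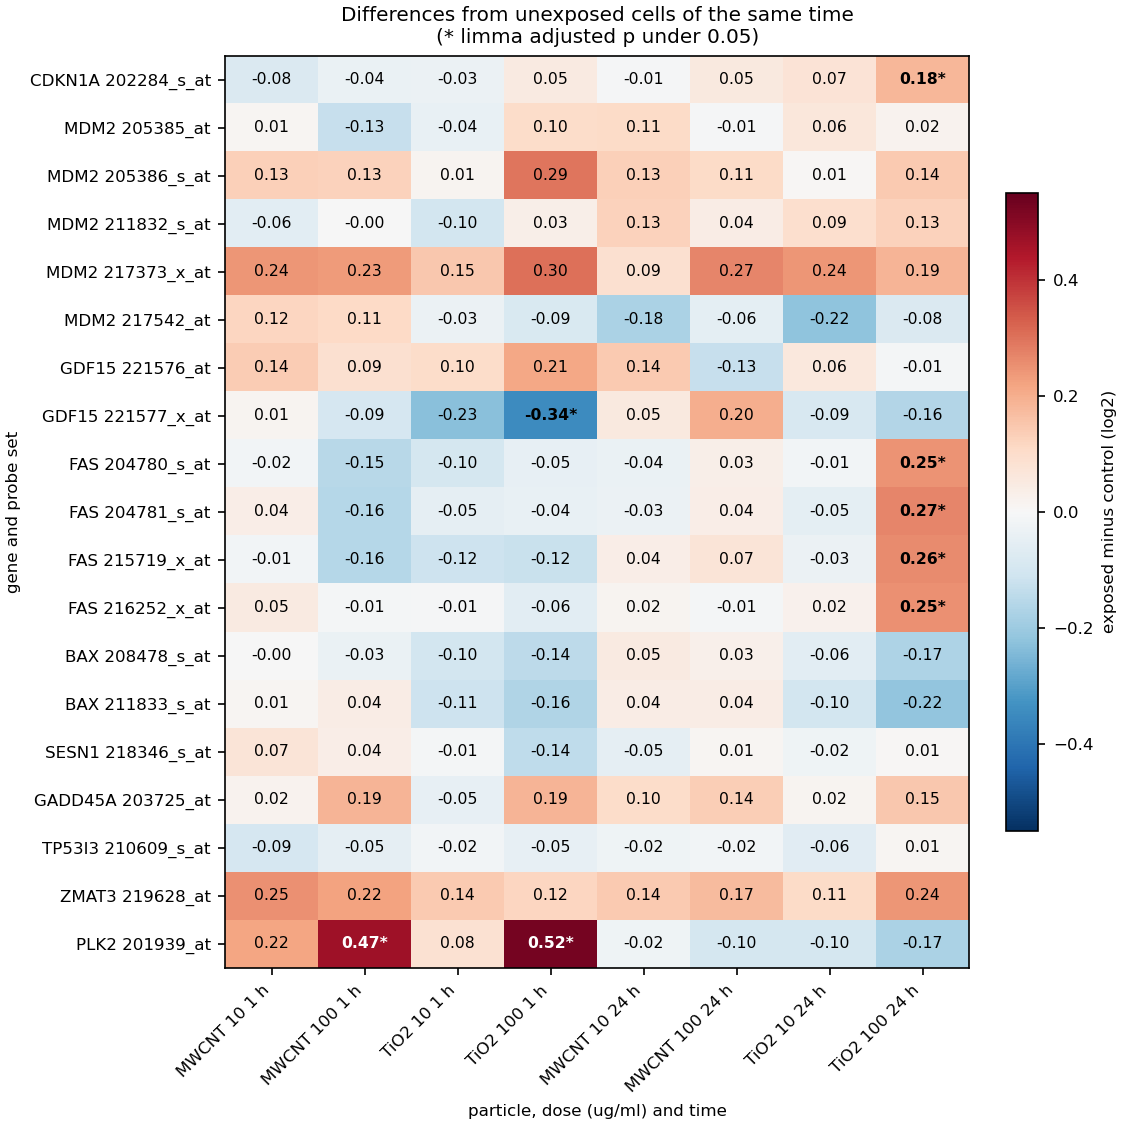
Difference from unexposed cells of the same time (colour and printed value, log2, exposed minus control, means of 3 arrays each) for the 19 probe sets (rows) and the 8 exposures (columns: particle, dose in ug/ml, time); a star marks limma adjusted p under 0.05. The 8 starred cells are PLK2 and GDF15 at 1 h and FAS and CDKN1A at 24 h.

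At 24 h the passing probe sets belonged to FAS and CDKN1A, in cells given TiO2 at 100 ug/ml. There 5 of the 19 probe sets rose and 0 fell, and of all probe sets 10.4% passed, 3.82% higher and 6.55% lower. The median difference of the 19 was 0.13 and that of all probe sets -0.02, but with 1 probe set for each of the 10 genes the median was 0.01. The 5 comprise all 4 probe sets of FAS, which read 1 gene and are not 4 separate results.

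FAS probe set 204781_s_at measured 9.43, 9.49 and 9.38 with TiO2 at 100 ug/ml against 9.23, 9.10 and 9.17 in unexposed cells at 24 h. The exposed arrays were all above the controls and within the 9.20 to 9.59 that the 15 arrays of 1 h spanned. The rise was 0.27 ± 0.06 (1.21-fold, 95% interval 0.14 to 0.40, adjusted p = 0.00993). Probe set 204780_s_at measured 10.22, 10.12 and 10.08 against 9.88, 9.94 and 9.86, a rise of 0.25 ± 0.06 (adjusted p = 0.018). Probe set 215719_x_at measured 9.17, 9.23 and 9.16 against 8.89, 8.88 and 9.004, a rise of 0.26 ± 0.07 (adjusted p = 0.0271). Probe set 216252_x_at measured 8.33, 8.16 and 8.30 against 7.94, 8.06 and 8.05, a rise of 0.25 ± 0.08 (adjusted p = 0.0411). In none of the 4 did exposed and control arrays overlap.

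No FAS probe set passed with the other 3 exposures at 24 h. Their 12 differences ran from -0.05 to 0.07. TiO2 at 10 ug/ml gave 204781_s_at levels of 9.14, 9.06 and 9.14, and MWCNT at 100 ug/ml gave 9.27, 9.14 and 9.20.

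CDKN1A measured 11.04, 11.11 and 11.17 with TiO2 at 100 ug/ml at 24 h and 10.90, 10.99 and 10.88 without. The 3 exposed arrays were above the 3 controls by a small margin. The rise was 0.18 ± 0.06 (1.14-fold, adjusted p = 0.0494). The CDKN1A call was lost with replicates as a block (adjusted p = 0.0593), with only the 2 groups fitted (0.205), without replicate 1 (0.126) or 3 (0.124) of the controls, and without replicate 1 (0.0515), 2 (0.1) or 3 (0.184) of the exposed cells.

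The FAS rises were positive in every setting, but their size and call moved. The lowest and highest differences over the settings were 0.24 and 0.35 at 204781_s_at, 0.21 and 0.31 at 204780_s_at, 0.21 and 0.34 at 215719_x_at, and 0.19 and 0.32 at 216252_x_at. With only the 2 groups fitted, all 4 probe sets missed the threshold (adjusted p from 0.131 to 0.151), so that 0 of the 19 passed. With arrays weighted by their fit 10 passed, where 2375 of all 22215 probe sets were higher and 2939 lower (848 and 1456 as reported). The 3 unexposed arrays at 24 h then had weights of 0.29, 0.42 and 5.30. These include the lowest and the highest of all 30, with the highest at replicate 3. Probe set 204781_s_at passed with any 1 array left out. Probe set 204780_s_at was lost without replicate 1 of the controls (0.0527) or of the exposed cells (0.0788). The others were each lost in 5 of 6 such fits, 215719_x_at in all but the one without replicate 3 of the controls (0.0595 to 0.0835) and 216252_x_at in all but the one without replicate 2 of the exposed cells (0.0562 to 0.135).

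Marker genes moved in the same cultures. With TiO2 at 100 ug/ml at 24 h, 4 of 5 general epithelial genes fell. KRT19, at a mean of only 5.89 over all arrays, fell by 0.55, KRT8 by 0.50, CDH1 by 0.39 and KRT18 by 0.30. The log2 summed level of these 5 was 12.93 to 13.06 in the exposed arrays and 13.08 to 13.53 in the controls. Among 6 fibroblast genes DCN rose by 0.41 and COL1A1 by 0.35, with summed levels of 9.22 to 9.32 against 9.08 to 9.09. Their mean levels over all arrays were 5.62 and 8.02. Among 4 measured secretory genes BPIFA1 rose by 0.40 and MUC5B by 0.32, with summed levels of 7.99 to 8.29 against 7.70 to 7.85. Of 5 basal, 3 ciliated, 4 alveolar, 5 endothelial and 4 immune genes measured, 0 passed. The part of these shifts in the FAS and CDKN1A results was not tested.

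**Figure D4:**
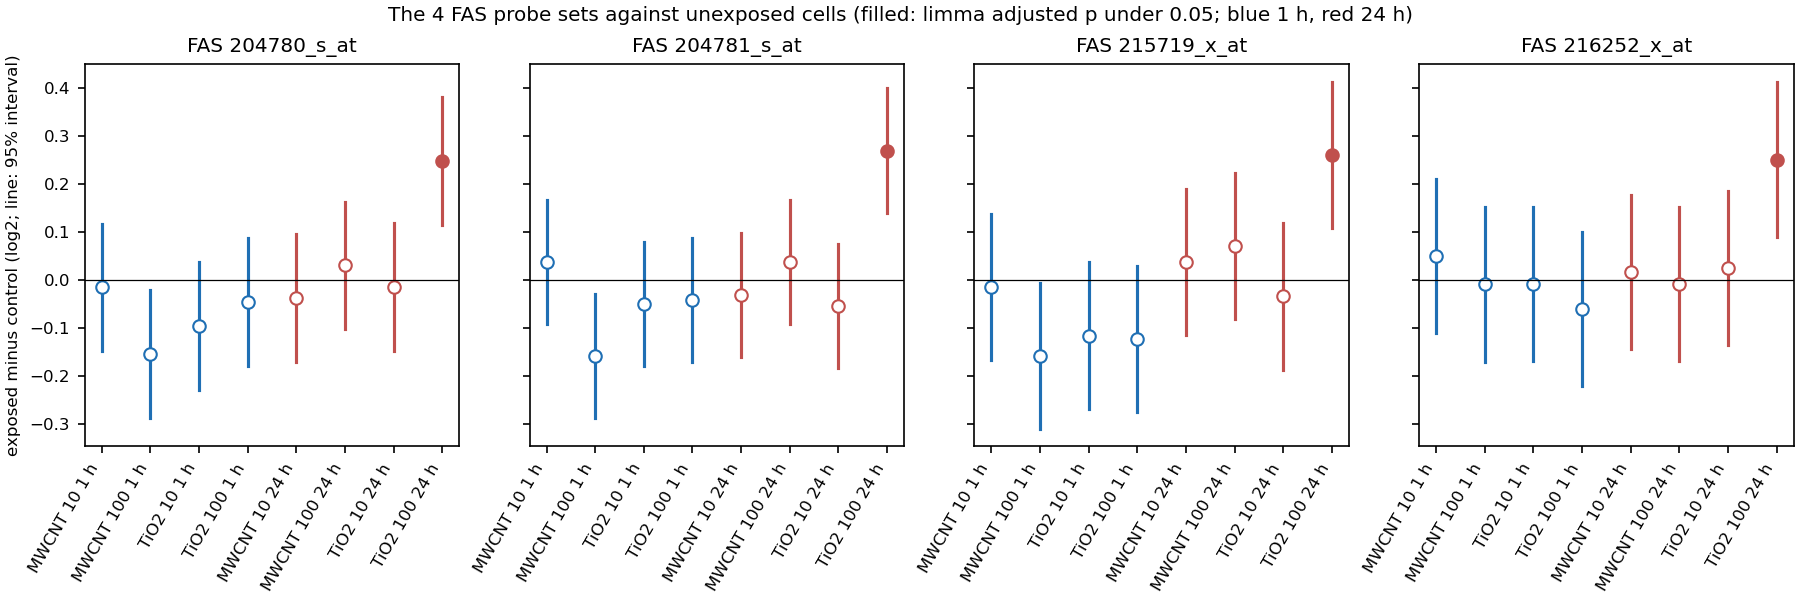
Differences of the 4 FAS probe sets (panels) from unexposed cells of the same time (y axis, log2) for the 8 exposures (x axis: particle, dose in ug/ml, time); points are differences of 3 against 3 arrays, lines 95% intervals, blue 1 h, red 24 h, and filled points passed limma's adjusted p of 0.05. In each panel TiO2 100 at 24 h is the highest point, between 0.25 and 0.27.

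The other targets did not pass with TiO2 at 100 ug/ml at 24 h. ZMAT3 measured 8.86, 8.93 and 8.99 against 8.47, 8.87 and 8.71, a difference of 0.24 ± 0.09 (adjusted p = 0.0904). It passed without replicate 2 of the controls (adjusted p = 0.0331), after cyclic loess and with array weights. Its differences from control were positive in all 8 comparisons, from 0.11 to 0.25, but the arrays overlapped in each. BAX probe sets gave -0.17 and -0.22 (adjusted p = 0.294 and 0.171), and passed as lower with array weights. GADD45A gave 0.15 and PLK2 gave -0.17, with adjusted p of 0.18 and 0.21. GADD45A passed as higher with array weights. SESN1 and TP53I3 gave 0.01 each. GDF15 gave -0.16 ± 0.08 at 221577_x_at (adjusted p = 0.211), with its exposed arrays below the controls, and -0.01 at the dim 221576_at. The MDM2 probe sets gave differences from -0.08 to 0.19, and the dim 205386_s_at passed as higher with array weights.

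With MWCNT at 24 h, limma called 0 of the 19 probe sets at 10 and 0 at 100 ug/ml, and 0% of all probe sets passed either comparison. Unadjusted p values under 0.05 numbered 0 and 2 among the 19, and 807 and 1341 among all 22215 (3.63% and 6.04%). The 2 were GDF15 at 221577_x_at, with 10.54, 10.68 and 10.75 against 10.52, 10.41 and 10.44 (difference 0.20 ± 0.08), and the dim MDM2 probe set 217373_x_at (0.27 ± 0.13). With array weights 3 passed: those 2 and the dim MDM2 probe set 205386_s_at. Of all 22215 probe sets, 691 were then higher and 555 lower. TiO2 at 10 ug/ml also gave 0 of 19 at 24 h, where 4.71% of all probe sets passed, and 1 unadjusted p under 0.05, where 24.3% of all had one. That 1 was MDM2 at 217542_at, with 7.43, 7.47 and 7.42 against 7.85, 7.59 and 7.53, a difference of -0.22 ± 0.10 (adjusted p = 0.162).

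Set against each other at equal dose and time, the particles differed in FAS and GDF15 at 100 ug/ml and 24 h. There 1 probe set was higher and 3 were lower with MWCNT, against 8.91% of all probe sets passing, 5.33% higher and 3.58% lower. GDF15 at 221577_x_at measured 10.54, 10.68 and 10.75 with MWCNT and 10.17, 10.37 and 10.35 with TiO2. The arrays did not overlap, and the level was 0.36 ± 0.08 higher with MWCNT (1.28-fold, adjusted p = 0.0103). The unexposed cells lay between, at 10.41 to 10.52. The call was lost without replicate 3 of the MWCNT cells (adjusted p = 0.0612) or replicate 1 of the TiO2 cells (0.0595).

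FAS was lower with MWCNT than with TiO2, by 0.22 ± 0.06 at 204780_s_at (adjusted p = 0.0362), 0.23 ± 0.06 at 204781_s_at (0.0226) and 0.26 ± 0.08 at 216252_x_at (0.0379). Probe set 215719_x_at gave -0.19 ± 0.07 and did not pass (0.103), although it did after cyclic loess and with array weights. Arrays of the 2 particles did not overlap in any of the 4. The 3 calls were fragile. Probe set 204781_s_at was lost without replicate 2 or 3 of the MWCNT cells or 1 or 2 of the TiO2 cells (0.0608 to 0.0952). Probe set 204780_s_at was lost in all such fits but that without replicate 3 of the TiO2 cells (0.0688 to 0.144), and with only the 2 groups fitted (0.055). Probe set 216252_x_at was lost in all but that without replicate 2 of the TiO2 cells (0.0797 to 0.127).

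Markers also passed between the particles at 100 ug/ml and 24 h. Lower with MWCNT were the secretory genes MUC5AC by 0.63, BPIFA1 by 0.48 and MUC5B by 0.39 (3 of 4), the immune genes CD3E by 0.47 and CD14 by 0.43 (2 of 4) and the fibroblast gene COL1A1 by 0.40 (1 of 6). Summed log2 levels with MWCNT and with TiO2 were 7.52 to 7.71 and 7.99 to 8.29 for secretory, 7.81 to 8.13 and 8.30 to 8.47 for immune, and 9.02 to 9.08 and 9.22 to 9.32 for fibroblast genes. Of the general epithelial, basal, ciliated, alveolar and endothelial genes 0 passed. The part of these in the FAS and GDF15 differences was not tested.

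Elsewhere the particles were not told apart in these genes. Limma called 0 of 19 at 10 ug/ml and 1 h (0.009% of all probe sets), 0 at 100 ug/ml and 1 h (0.018%) and 0 at 10 ug/ml and 24 h (3.75%). Unadjusted p values under 0.05 numbered 1, 2 and 0 of 19, against 9.84%, 6.28% and 22.3% of all probe sets. PLK2 at 100 ug/ml and 1 h differed by -0.06, with a 95% interval of -0.24 to 0.13. CDKN1A at 100 ug/ml and 24 h differed by -0.13 (adjusted p = 0.163).

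Between the doses of TiO2 at 24 h, FAS probe set 204781_s_at was 0.32 ± 0.06 higher at 100 than at 10 ug/ml (adjusted p = 0.00822), where 0.729% of all probe sets passed. The other 3 gave 0.26, 0.29 and 0.23 and did not pass (adjusted p = 0.0574, 0.0625 and 0.275). In all 4 the arrays of the doses did not overlap. The call at 204781_s_at was lost without replicate 2 at 100 ug/ml (adjusted p = 0.0760) and with only the 2 groups fitted (0.147). With dim probe sets left out, after cyclic loess and with array weights 3 of the 4 passed. With dim ones left out, 143 of all 11122 were higher and 90 lower. Of all 22215, the numbers were 122 and 46 after cyclic loess and 213 and 163 with array weights. Between the doses of MWCNT 0 of 19 passed at 1 h (0.491% of all) and 0 at 24 h (0% of all), with 4 and 1 unadjusted p values under 0.05, against 6.4% and 2.35% of all.

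The exposure effects of PLK2 differed between the times. Its difference from control with TiO2 at 100 ug/ml was 0.52 at 1 h and -0.17 at 24 h, a change of -0.70 ± 0.13 that passed (adjusted p = 0.00431). With MWCNT at 100 ug/ml it went from 0.47 to -0.10, a change of -0.56 ± 0.13 (adjusted p = 0.0452). At 24 h PLK2 measured 9.50, 9.33 and 9.06 with TiO2, and 9.36, 9.44 and 9.34 with MWCNT, against 9.59, 9.39 and 9.44 without, so the arrays overlapped. Of all probe sets 1.44% passed this test for TiO2 and 0.446% for MWCNT, each with 1 of the 19. The MWCNT call was lost with replicates as a block (0.0637) and without any 1 of the 12 arrays except replicate 2 of the unexposed cells at 24 h (0.0554 to 0.143). The TiO2 call was lost only with the 4 groups fitted alone (0.105) among the settings run.

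FAS came close to the threshold in the same test for TiO2 at 100 ug/ml. Its 4 probe sets gave changes of 0.29 to 0.38, from differences of -0.12 to -0.04 at 1 h to 0.25 to 0.27 at 24 h (adjusted p from 0.0627 to 0.154). With array weights 3 of them passed, where 460 of all 22215 probe sets were higher and 632 lower. For 10 ug/ml the counts were 0 of 19 with MWCNT (0% of all probe sets) and 0 with TiO2 (0.0225% of all), with 1 and 0 unadjusted p values under 0.05, against 5.15% and 12.7% of all.

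Ordered by group mean, 4 probe sets had every 1 h group above every 24 h group (CDKN1A, GADD45A, PLK2 and GDF15 at 221577_x_at). The reverse held for 3 (SESN1 and both of BAX), and 12 had the times mixed. Such orders were not counted over all probe sets, of which 27.9% passed between the times in unexposed cells. For PLK2 the order ran from TiO2 100 at 1 h (10.68) through MWCNT 100 (10.63), MWCNT 10 (10.37), TiO2 10 (10.24) and unexposed (10.16) to the 24 h groups, from unexposed (9.47) down to TiO2 100 (9.30). Its arrays parted between neighbours at 3 of the 9 steps: between MWCNT 100 and MWCNT 10, between MWCNT 10 and TiO2 10, and between the times. For CDKN1A they parted at 1 step, between the times, with group means of 11.53 to 11.66 at 1 h and 10.92 to 11.11 at 24 h. For FAS at 204781_s_at neighbours overlapped at all 9 steps. TiO2 100 at 24 h (9.44) stood among the 1 h groups (9.35 to 9.54), and the other 24 h groups were at 9.11 to 9.20. For MDM2, ZMAT3, BAX and GDF15 at 221576_at all neighbours overlapped too.

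Other genes of the pathway were counted on 1 probe set each. In unexposed cells over time, 7 of 13 measured p53 regulators were higher at 24 h and 0 lower, where 16.2% of all probe sets were higher and 11.6% lower. They include PPM1D, the phosphatase that switches p53 signalling off (0.62 ± 0.06), and HIPK2, a kinase of p53 (0.54 ± 0.18). ATM, the DNA break kinase (0.42 ± 0.09), and the acetyltransferase EP300 (0.42 ± 0.09) are among them too. HIPK2 and EP300 have other probe sets, which were not examined over time. Of 21 other p53 targets 6 rose and 6 fell, with a median difference of 0.10 and differences from -1.51 to 0.42. The 4 largest differences that passed were all falls. The kinase PLK3 fell by 1.51, the death receptor TNFRSF10B by 0.60, the 14-3-3 protein SFN by 0.55 and the nuclease AEN by 0.44. Of 12 cell cycle genes that p21 is known to repress, 8 rose and 0 fell, among them CDC25C by 0.42, MKI67 by 0.41, TOP2A by 0.36 and CDK1 by 0.30. Those 12 and the regulators had medians of 0.25 and 0.23, against -0.02 for all probe sets. Fitted with 1 probe set per gene, as these lists are counted, 2307 of 11963 were higher and 1489 lower. Of the 11122 probe sets above the table median, 3196 were higher and 2114 lower. With only the 2 groups fitted, 3 regulators and 4 cell cycle genes passed.

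The same lists were counted against unexposed cells. At 1 h, 0 of the 21 other targets and 0 of the 12 cell cycle genes passed with any of the 4 exposures. HIPK2 and EP300 were the 2 of 13 regulators that rose, in 3 of the 4 exposures (1.45%, 1.27% and 2.63% of all probe sets passed these). They rose by 0.74 and 0.50 with MWCNT at 100 ug/ml, 0.75 and 0.63 with TiO2 at 10 ug/ml, and 0.89 and 0.68 with TiO2 at 100 ug/ml. Other probe sets of these genes did not show that: the second of EP300 gave 0.08, -0.07 and -0.09, and the second of HIPK2 gave 0.05, 0.11 and 0.12. The rises of HIPK2 and EP300 with exposure and over time all rest on the same unexposed arrays of 1 h. With TiO2 at 10 ug/ml at 24 h, where 4.71% of all passed, 3 of 13 regulators fell, TP53BP1 and PPM1D by 0.22 and CHEK2 by 0.17, and of the other targets the tetraspanin CD82 rose by 0.29 and SCO2 fell by 0.19. With TiO2 at 100 ug/ml at 24 h, where 10.4% of all passed, 2 regulators fell. CHEK2, a checkpoint kinase, fell by 0.30 ± 0.04 and TP53BP1, a DNA break adaptor, by 0.28 ± 0.06. SCO2, which assembles cytochrome oxidase, was the 1 of 21 other targets to pass, lower by 0.18, and CDC25C the 1 of 12 cell cycle genes, lower by 0.17. With only the 2 groups fitted these 3 lists held 0 calls in that comparison. With array weights 5 of 21 other targets and 6 of 12 cell cycle genes passed. In that setting 2375 of all 22215 probe sets were higher and 2939 lower.

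Genes of the ATF4 stress pathway, through which GDF15 and other members can also be induced, were counted as well. With 100 ug/ml at 1 h, 1 of 8 rose and 2 fell with each particle, where 1.45% (MWCNT) and 2.63% (TiO2) of all probe sets passed. ATF3, a stress transcription factor, rose by 0.70 with MWCNT and 0.86 with TiO2. The mTORC1 inhibitor DDIT4 fell by 0.93 and 0.54, and DDIT3, the factor CHOP, by 0.29 and 0.38. In unexposed cells over time 5 rose and 3 fell, so that all 8 passed, where 27.9% of all probe sets did. With 1 probe set per gene, 2307 of 11963 rose and 1489 fell. CHAC1, which degrades glutathione, rose by 2.45 and ATF4 itself by 0.61, while the phosphatase subunit PPP1R15A fell by 1.35 and ATF3 by 0.77. With TiO2 at 100 ug/ml at 24 h the 1 call of 8 was asparagine synthetase, ASNS, lower by 0.17, where 10.4% of all passed.

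The 10 genes did not vary as 1 unit. After the mean of each time was subtracted from every array, the 45 pairs of genes had a median Pearson r of 0.06 over the 30 arrays, from -0.36 to 0.66. MDM2 with SESN1 gave 0.66, GDF15 with BAX 0.63 and GADD45A with PLK2 0.50. Arrays share RNA amounts, labelling and group effects, so these values describe the table. Within a gene, the 2 BAX probe sets correlated at 0.91 and the 6 FAS pairs at 0.67 to 0.83, but the 2 of GDF15 at -0.22 and the 10 pairs of MDM2 at -0.19 to 0.34.

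By the same measure the 3 closest genes outside the set were named for each member, out of 9920 probe sets that have 1 gene symbol and a mean above the table median. For PLK2 they were PTGER4, a prostaglandin receptor (0.84), ZFAND5 (0.82) and CDR2 (0.82). GADD45A went with YRDC (0.85), OGFRL1 (0.81) and the AP-1 subunit JUN (0.78). FAS went with GALNT1 (0.79), MYOF (0.78) and RAB31 (0.77), and CDKN1A with B3GAT3 (0.76), HTR4 (0.75) and SLC12A4 (0.74). GDF15 gave the highest of these values, with FBXW4 (0.86), followed by the transaminase GOT1 (0.84) and SNHG32 (0.82). BAX went with FKBP2 (0.83), PIP5K1A (0.82) and RCC1 (0.80), and ZMAT3 with PTP4A2 (0.84), ASAP1 (0.79) and PRRC2C (0.78). MDM2 and SESN1 shared MCCC2 (0.76 and 0.77) and OGT (0.75 and 0.72), with MGAT5 (0.78) for the first and MIS12 (0.72) for the second. TP53I3 went with CHCHD2 (0.74), DKK3 (0.73) and TCF3 (0.73).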

How the data were processed

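The deposited values are on a log2 scale, and per the submitters' processing notes the authors obtained them by RMA, the robust multi-array average. RMA corrects background, equalises the arrays by quantiles and summarises each probe set, so overall shifts between arrays are removed. Its version and the annotation are not given in the sources used here. Of 22277 probe sets 62 array controls were left out. The platform table gave 1 symbol for 19064 of the rest, several for 1043 and none for 2108. All 22215 were fitted in limma 3.58.1 (R 4.3.3, statmod 1.5.0) with 1 mean per group, 10 groups sharing 1 variance per probe set, for 21 comparisons. P values are two-sided and adjusted by Benjamini-Hochberg within each. An exact permutation of 3 against 3 arrays cannot go below 0.1.

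All member probe sets are described. Up to 4 passing genes per list, those with the largest differences, and the 3 probe sets most like each member are named. Genes of lists have the probe set with the highest mean. Regulators (13 of 15 listed), other targets (21 of 27), cell cycle genes (12 of 12) and ATF4 genes (8 of 8) were measured; the rest were not analysed here. The members and lists were chosen with earlier results of these data known. The closing section gives the alternative settings. The fits were tested on simulated data, with changes added to TiO2 at 100 ug/ml and 24 h in 67, 67 and 66 of 22215 probe sets. Against control, 28.4% of changes of 0.25 were called, 82.1% of those of 0.5 and 95.5% of those of 1. Of 150 calls 13 were false. A change of 0.25 was thus missed more often than called there. The simulation changed fewer probe sets than passed in that comparison of the data. Promoters were searched in Python 3.11.15 with pandas 2.3.3, and plots drawn with matplotlib 3.10.9.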

Additional observations from a re-analysis of the deposited data

Results flagged for a closer look

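The effect of each particle on PLK2 at 100 ug/ml differed between the times by limma's interaction test. Exposed minus control was 0.47 at 1 h and -0.10 at 24 h with MWCNT, a change of -0.56 (adjusted p = 0.0452), and 0.52 and -0.17 with TiO2, a change of -0.70 (adjusted p = 0.00431). Both changes rest on the same 6 control arrays, and unexposed PLK2 itself fell by 0.68 over the interval.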

How the results depend on the processing

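No result reversed in the settings run: dim probe sets left out (11122 tested), 1 probe set per gene (11963), a replicate block, cyclic loess, array weights, only the compared groups, and leaving out arrays in turn. No setting moved the median of all probe sets by over 0.1. Counts of the 19 probe sets moved as follows, and the cause was not tested. Some settings have fewer arrays or probe sets by construction, but array weights, cyclic loess and the replicate block keep all of them. With only the compared groups, TiO2 100 gave 1 at 1 h (2 as reported) and 0 at 24 h (5), TiO2 100 against 10 gave 0 at 1 h (1) and 0 at 24 h (1), and the TiO2 100 effect between times gave 0 (1). Array weights gave 3 for MWCNT 100 at 24 h (0) and 10 for TiO2 100 at 24 h. They gave 3 for TiO2 100 against 10 at 24 h and 4 for the TiO2 100 effect between times. Over all 22215 probe sets they gave 691 higher and 555 lower, 2375 and 2939, 213 and 163, and 460 and 632, in that order. With 1 probe set per gene at most 10 can pass. There TiO2 100 at 24 h gave 2, MWCNT against TiO2 at 100 and 24 h 2 (4), and the unexposed cells over time 7 (11). Over all 11963 that setting gave 514 higher and 1063 lower, 921 and 544, and 2307 and 1489, in that order. Leaving out dim probe sets gave 3 for TiO2 100 against 10 at 24 h and 3 for the TiO2 100 effect between times. Cyclic loess gave the same. With dim ones left out, all 11122 gave 143 higher and 90 lower, and 129 and 284, in these comparisons. After cyclic loess all 22215 gave 122 and 46, and 120 and 141. The replicate block gave 0 for the MWCNT 100 effect between times (1) and moved no other count by over 1.5 times.

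Leaving out 1 array gave 1 to 2 for TiO2 100 at 1 h, 1 to 4 for TiO2 100 at 24 h, 0 to 3 for MWCNT against TiO2 at 100 and 24 h, 0 to 1 and 0 to 2 for TiO2 100 against 10 at 1 h and 24 h, 8 to 11 for unexposed cells over time, and 0 to 1 and 1 to 3 for the MWCNT and TiO2 100 effects between times. Same-numbered arrays of 45 pairs of groups correlated at -0.25 to 0.38 in their deviations (median 0.01), and 1 pair of groups had all 3 over 0.1. The closest array in another group had the same number in 103 of 270 cases. With 3 arrays per group these values cannot settle whether replicates were paired. Other list counts in the text moved too. For TiO2 10 at 24 h, regulators (3) gave 0 after cyclic loess, and other targets (2) gave 1 there and 1 with the block. Both gave 0 when the compared groups were fitted alone. Of all 22215 probe sets, 206 were higher and 134 lower after cyclic loess, and 423 and 451 with the block. For TiO2 100 at 24 h, ATF4 genes (1) gave 2 with array weights, with dim probe sets left out and with 1 probe set per gene. Cell cycle genes (1) gave 3, 2 and 0 with dim probe sets left out, 1 probe set per gene and cyclic loess. Higher and lower over all 22215 were 2375 and 2939 with array weights, and 713 and 547 after cyclic loess. They were 430 and 1748 of 11122 with dim ones left out, and 514 and 1063 of 11963 with 1 per gene. Of the 19 probe sets 5 (4 of MDM2, 1 of GDF15) lie below the table median, and whether low signal limits their calls was not tested.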
